A study of Homo sapiens with 24 samples.

Results

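The 12 libraries of A549, a human lung adenocarcinoma line, were grouped by the measured count of MCM7, not by their labels, and compared as 3 libraries with low MCM7 against 9 with normal MCM7. The limits were under 150 and over 250 CPM, counts scaled to the library total. MCM7 stood at 95.2 CPM in the library labelled shMCM7 Dox 3, at 97.8 CPM in the one labelled shMCM7 noDox 2 and at 88.1 CPM in the one labelled parental noDox 2. In the other 9 libraries it lay between 301 and 341 CPM (median 325). The members just inside and just outside the lower limit were thus at 97.8 and 301 CPM, and 0 libraries fell between the limits. Of the 24 libraries of the series, the remaining 12 come from the melanoma line A375 and were not split.

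The study depleted MCM7 in cells held at the G1/S boundary and asked which genes respond. Both lines were sequenced in 4 labelled groups of 3 libraries. These were cells transduced with an inducible shRNA against MCM7 in the lentiviral vector pRSIT17 (shMCM7) and parental cells without it, each with 1 μg/ml doxycycline (Dox) for 72 hours or without Dox (noDox). All groups, controls included, were synchronized by a double thymidine block. The shMCM7 cells were puromycin-selected populations, not single clones.

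The low libraries did not follow the labels. They made up 1 of 3 libraries in shMCM7 Dox, 1 of 3 in shMCM7 noDox, 1 of 3 in parental noDox and 0 of 3 in parental Dox. One of them is labelled as carrying no shRNA and 2 as having had no Dox, so the split is a statement about measured RNA, and neither knockdown nor treatment can be read from it. The study's own gene table for A549 has its high values of CEND1 and SYT11 in the shMCM7 Dox columns, whereas the deposited files have them in the low-MCM7 libraries. Labels and files may therefore be mismatched in the deposit, which was not tested, and the labels were kept. Because the split was made on values from these libraries, every A549 difference below is a description with no p-value. Library names below are those of the labels.

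**Figure D1:**
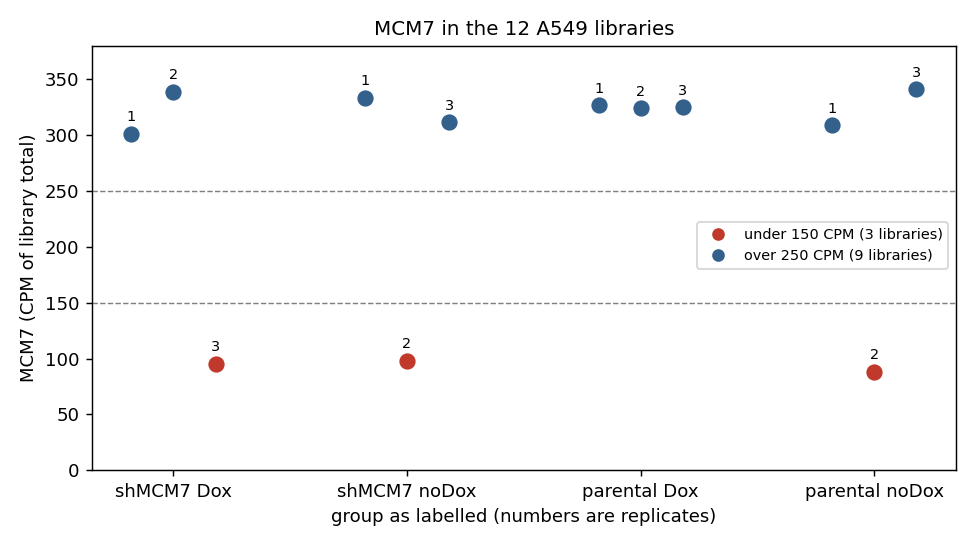
MCM7 level in each of the 12 A549 libraries, in CPM of the library total, arranged by labelled group with the replicate number above each point. Dashed lines are the limits of 150 and 250 CPM, and 3 libraries from 3 different groups lie at 88.1 to 97.8 CPM while 9 lie at 301 to 341 CPM.

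MCM7 is a subunit of the ring-shaped MCM2-7 complex, the helicase that is loaded onto replication origins in G1 (licensing) and opens the DNA in S phase. Cells normally load more of these complexes than they fire, and the protein is often abundant in tumours. The gene lies on the minus strand of chromosome 7 of GRCh38 from 100092728 to 100101940 (GENCODE 29). The sequence targeted by the shRNA is shown because it defines what the label shMCM7 means. Capitals mark the 7 bases that pair with positions 2 to 8 of the guide strand, the seed by which small RNAs can also recognise other transcripts.
shMCM7 target: cagaggaggatttCTACGAAa

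This 21-base stretch lies in coding sequence and spans a splice junction. In the transcript with 15 exons its first 3 bases end exon 8 (chromosome 7, 100097834 to 100097836) and the other 18 open exon 9 (100097728 to 100097745). The 7 capitalised bases occurred in the annotated 3′UTR of 11 of 967 genes counted as higher (1.14%), of 19 of 933 counted as lower (2.04%) and of 169 of all 13342 genes with a 3′UTR in the annotation (1.27%). The median 3′UTR lengths of these groups were 1809, 1227 and 1334 bases, and the shares are not corrected for length. RFC3, described below as lower, is one of the 19. Such a match describes letters and not a bound site.

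The A549 libraries held 17911338 to 23452823 counts and detected 15667 to 15920 genes, and 3 counts in a library corresponded to 0.128 to 0.167 CPM, a floor for counting error only. Depth did not separate the classes, with 19915235 to 23452823 counts in the low libraries. Mitochondrial transcripts took 2.91%, 5.43% and 3.79% of the counts in shMCM7 Dox 3, shMCM7 noDox 2 and parental noDox 2, within the 3.03% to 6.30% of the others apart from the first. The 15 epithelial marker genes of A549 summed to 25117 to 26036 CPM in the low libraries and 24380 to 28383 CPM in the normal ones, against 1222 to 1392 CPM in A375. Melanoma markers summed to 218 to 224 CPM in the low and 193 to 218 CPM in the normal libraries, against 2022 to 2305 CPM in A375, and the melanocyte-lineage factor SOX10 was at 0 in all 12 A549 libraries. Leukocyte markers PTPRC and CD3E were at or near 0, and the leukocyte sum, 40.5 to 41.0 CPM against 48.1 to 67.5 CPM, was carried by CD68 and ITGAM.

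The 3 low libraries resembled each other across the transcriptome even with MCM7 left out. Correlations of log2 CPM across genes were 0.992 to 0.994 among the 3, 0.984 to 0.996 among the 9 and 0.967 to 0.977 between the classes. On the first principal component, which took 53.1% of the variance, the low libraries scored 43.1 to 45.6 and the normal ones -18.6 to -9.57. The second component, with 15.1% of the variance, cut across the split. Parental noDox 1 (27.9), shMCM7 Dox 1 (18.8) and the low library parental noDox 2 (17.6) scored high on it, so parental noDox 2 was the least typical of the 3 low libraries.

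**Figure D2:**
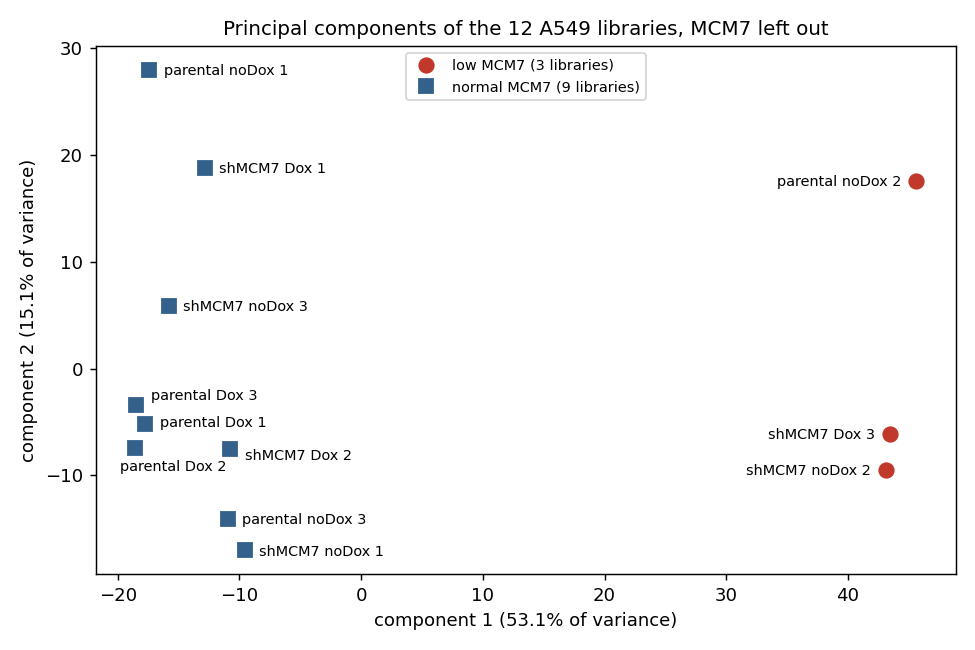
Scores of the 12 A549 libraries on the first and second principal component of log2 CPM, computed without MCM7, with 53.1% and 15.1% of the variance. The 3 low-MCM7 libraries (circles) lie at 43.1 to 45.6 on the first component, apart from the 9 others (squares), while the second component spreads both classes.

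For each of 13784 genes, MCM7 excluded, the mean log2 CPM (TMM-scaled, prior count 2) of the 9 normal libraries was subtracted from that of the 3 low libraries. A gene was counted when the 3 and the 9 did not overlap in CPM and the difference was at least 1.5-fold. By this rule 988 genes were higher with low MCM7 (7.17% of all genes) and 948 were lower (6.88%). Without the fold limit, 2728 and 2648 genes did not overlap. A gene expressed in only one class can pass the filter on low counts through that class alone, so counts of members describe the measured genes only. The shares of 7.17% and 6.88% are the background for every A549 count of list members below. Counts of list members in A375 have their own background, given with them. The median A549 difference over all genes was -0.0086 on the log2 scale. Since RNA was taken from whole cultures, fewer cells expressing a gene and less RNA per cell cannot be told apart. Of the counted genes, 24.3% of the higher and 21.6% of the lower overlap a gene on the other strand, against 27.9% of all genes. The sources used here do not say whether counting used strand, so reads of such neighbours may be included. Among the genes described below this applies to SLC4A8, TAGLN, DOCK2, COL4A1, COX15, THBS1, NID2, TIMP2, REST, PIK3CD, PLK1, MTHFD2, SLC25A32, ATF5 and BOP1.

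Genes higher with low MCM7 were led by matrix and neuronal genes. In what follows, values are TMM-scaled CPM, given for parental noDox 2, shMCM7 Dox 3 and shMCM7 noDox 2 in this order, and then as the median and range of the 9 normal libraries. Folds include the prior count, which understates those of low genes. SPARC, a secreted glycoprotein that binds collagen, was at 26.3, 23.1 and 29.7 CPM against a median of 2.17 CPM (1.61 to 4.02) in the 9 others. This was the largest difference among the genes named by size, 10.3-fold or 3.36 on the log2 scale (SD 0.18 among the 3 and 0.49 among the 9). COL1A1, a chain of type I collagen, stood at 56.3, 64.8 and 64.3 CPM against a median of 12.9 CPM (9.49 to 20.5). COL4A1, a chain of the basement membrane collagen IV, was the most abundant of the 12 and the most even, with 338, 336 and 334 CPM against a median of 85.5 CPM (70.8 to 109.7), 3.83-fold.

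TAGLN, an actin-binding protein of contractile cells, reached 64.4, 94.5 and 89.0 CPM against a median of 13.3 CPM (11.96 to 17.2), 5.69-fold higher. SUSD2, a membrane protein, was at 81.4, 120.2 and 122 CPM against a median of 20.4 CPM (14.5 to 49.2), and varied widely among the 9. EDN2, which encodes the vasoconstrictor peptide endothelin 2, was at 26.3, 29.8 and 37.9 CPM against a median of 7.16 CPM (5.96 to 8.64). For TAGLN, SUSD2 and EDN2 the lowest of the 3 values came from parental noDox 2.

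Several of the leading genes are best known from neurons. CEND1, which promotes cell cycle exit in neuronal precursors, was at 10.8, 18.1 and 17.7 CPM against a median of 1.38 CPM (0.870 to 2.64), 9.89-fold higher. SYT11, a synaptotagmin of vesicle traffic, was at 24.6, 27.9 and 24.5 CPM against a median of 4.04 CPM (2.56 to 4.76). KIF5C, a kinesin heavy chain, was at 15.1, 17.97 and 16.9 CPM against a median of 2.89 CPM (1.996 to 5.00). In each of these genes the lowest low-MCM7 library exceeded the highest normal library by at least 3-fold.

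Transporters and a signalling gene completed the 12. SLC4A8, a sodium-driven chloride and bicarbonate exchanger, was at 27.7, 25.8 and 25.5 CPM against a median of 3.38 CPM (2.77 to 6.66), and SLCO2B1, an organic anion transporter, at 22.8, 23.9 and 25.9 CPM against a median of 7.52 CPM (3.46 to 8.53). DOCK2, an activator of the GTPase RAC best known in blood cells, was at 16.7, 15.7 and 15.4 CPM against a median of 3.07 CPM (2.66 to 3.63). The 9 normal libraries spread less for DOCK2 than for either transporter.

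Genes lower with low MCM7 were led by BCL2A1 and COX15. COX15, which makes the heme A of cytochrome c oxidase, was at 17.7, 17.4 and 18.9 CPM against a median of 93.8 CPM (88.8 to 106), 5.31-fold lower with little spread (SD 0.065 among the 3 and 0.092 among the 9). BCL2A1, an anti-apoptotic BCL2 relative, was at 1.86, 1.07 and 1.64 CPM against a median of 9.32 CPM (5.52 to 11.7), 5.35-fold lower. BIRC3, an inhibitor of apoptosis and ubiquitin ligase of the NF-κB pathway, was at 37.6, 39.2 and 38.1 CPM against a median of 129.6 CPM (122 to 163). In all 3 genes the highest low-MCM7 library stayed under the lowest normal library by more than 2-fold.

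The regulatory PI3K subunit PIK3R2 was at 7.52, 9.69 and 8.76 CPM against a median of 39.0 CPM (31.5 to 41.5), 4.38-fold lower, and CDC34, a ubiquitin-conjugating enzyme that acts with SCF ligases at the G1/S transition, was at 7.22, 9.56 and 10.0 CPM against a median of 38.4 CPM (31.2 to 39.95). The chemokine CXCL3 was at 2.21, 2.13 and 2.72 CPM against a median of 11.1 CPM (9.67 to 13.6). FA2H, which hydroxylates fatty acids of sphingolipids, was at 21.5, 27.6 and 22.3 CPM against a median of 88.9 CPM (79.1 to 112). None of these 4 genes came within 2-fold of the normal range in any low library.

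The other 5 genes of this group were lower by 3.34-fold to 3.97-fold. They were the keratin KRT15, the metalloreductase STEAP2, the SAM domain protein SAMD5, the RAB GTPase-activating protein TBC1D30 and FAM174B. KRT15 was the most variable, at 0.903, 3.33 and 1.74 CPM against a median of 7.03 CPM (5.76 to 10.6). STEAP2 was at 13.3, 13.8 and 10.97 CPM against a median of 47.8 CPM (40.6 to 59.0).

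Collagens had the largest share of members counted as higher among the 25 gene lists. Of 22 collagen genes measured, 11 were counted as higher (50% against 7.17% of all genes) and 0 as lower, with a median difference of 0.88 on the log2 scale. After COL1A1 and COL4A1 the next in size were COL12A1, a fibril-associated collagen, at 72.4, 72.7 and 70.9 CPM against a median of 23.0 CPM (19.5 to 24.7), and COL5A1, a chain of type V collagen, at 165, 219.7 and 204 CPM against a median of 67.5 CPM (50.2 to 94.0). The fibroblast marker list, which shares COL1A1 with the collagens, summed to 70.7 to 80.7 CPM in the low libraries and 16.2 to 27.8 CPM in the normal ones. Of its 8 genes, COL1A1 and THY1 carried the sum, LUM went the other way at 0.0853 to 0.1495 CPM against 0.190 to 1.33 CPM, DCN and POSTN were at 0 in all 12 libraries, and COL1A2 was at 0 in the 3 low ones. The part of such cells in the collagen result was not tested.

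Other matrix and adhesion genes were counted in both directions. Among 42 glycoproteins and proteoglycans, 11 were higher (26.2%) and 4 were lower (9.52%), with a median of 0.39. THBS1, the matrix protein thrombospondin 1, was at 172, 186 and 171 CPM against a median of 60.5 CPM (54.9 to 62.2). On the lower side SDC4, a cell surface heparan sulfate proteoglycan, was at 29.6, 26.98 and 29.7 CPM against a median of 68.7 CPM (63.5 to 78.9), and NID2, a basement membrane linker, at 8.12, 5.17 and 7.17 CPM against a median of 15.4 CPM (13.1 to 19.7). Of the 42 genes, 29 had a positive difference and 13 a negative one, and the lower share was near the background of 6.88%.

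Proteases and their inhibitors gave 3 higher members of 14 measured (21.4%) and 0 lower. RECK, a membrane-bound inhibitor of metalloproteinases, was at 30.5, 26.7 and 28.6 CPM against a median of 12.8 CPM (11.6 to 14.5). TIMP2, a secreted inhibitor, was at 580.1, 580.0 and 562 CPM against a median of 288 CPM (264 to 313), 1.98-fold higher with an SD of 0.027 log2 units among the 3. MMP16, a membrane-type metalloproteinase, lay near the floor, at 1.30, 1.15 and 0.974 CPM against a median of 0.585 CPM (0.283 to 0.888). MMP10, the secreted protease stromelysin 2, did not pass the filter on low counts, with 8, 22 and 12 counts in the low libraries and 1 to 7 in the others.

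Integrins and focal adhesion genes included 7 higher (23.3%) and 3 lower (10.0%) of 30. ITGA11, a collagen-binding integrin chain, was at 7.02, 6.28 and 7.07 CPM against a median of 2.74 CPM (1.87 to 3.36). ITGB3, a chain of the vitronectin receptor, was at 15.7, 14.5 and 16.9 CPM against a median of 10.3 CPM (3.48 to 14.2), and the 9 spread widely (SD 0.81 log2 units). The scaffold BCAR1 was lower, at 21.0, 37.9 and 36.9 CPM against a median of 66.3 CPM (38.7 to 76.0), with the lowest value in parental noDox 2. FERMT2, which activates integrins, was at 137, 132 and 131 CPM against a median of 71.7 CPM (63.2 to 83.9).

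Actin cytoskeleton genes gave 7 higher (20.6%) and 3 lower (8.82%) of 34, with TAGLN first. Among them MYL9, a myosin light chain, was at 2.96, 2.90 and 4.66 CPM against a median of 1.54 CPM (1.23 to 1.97), and the capping protein CAPG was lower at 24.5, 37.8 and 32.2 CPM against a median of 67.5 CPM (50.4 to 73.2). The 7 higher include CNN1, at 0.802, 1.24 and 0.871 CPM against a median of 0.269 CPM (0.0533 to 0.487). CNN1 passed the filter on low counts only through the low-MCM7 libraries, where it is high. Of 20 targets of the transcription coactivator YAP and its partner TEAD, 7 were higher (35.0%) and 0 lower (median 0.33). IGFBP3, which binds insulin-like growth factors, was at 422, 401 and 389 CPM against a median of 174 CPM (123 to 194). CYR61 (CCN1), a matricellular protein, was at 216, 205 and 218 CPM against a median of 102 CPM (89.0 to 121), and TGFB2, a TGFβ ligand, at 124, 128 and 131 CPM against a median of 65.7 CPM (55.4 to 75.0).

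Of 29 genes of epithelial junctions and the epithelial to mesenchymal transition, 2 were higher and 4 lower (6.90% and 13.8%). The list mixes epithelial and mesenchymal genes, so a common direction cannot be read from it. The repressor SNAI2 was at 3.46, 3.54 and 3.95 CPM against a median of 0.699 CPM (0.307 to 2.17), and N-cadherin (CDH2) at 79.7, 66.1 and 74.5 CPM against a median of 37.3 CPM (34.8 to 41.2). LSR, a protein of tricellular junctions, was lower at 4.21, 8.67 and 5.18 CPM against a median of 17.3 CPM (14.1 to 22.0), as was the desmosomal PKP3 at 7.57, 12.9 and 12.6 CPM against a median of 28.6 CPM (20.9 to 35.8).

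Of 30 neuronal genes measured, 9 were higher (30.0%) and 2 lower (6.67%). The list was drawn up with earlier results of these data known and holds leading genes such as CEND1. Its share is therefore a description and gives no independent support. It also includes REST, a repressor of such genes. FXYD7, a regulator of the sodium pump, was detected in the low libraries at 1.20, 1.54 and 1.18 CPM while the others lay at 0 to 0.107 CPM with a median of 0, so it passed the filter only through the libraries where it is high, and no fold is given. RAB39B, a RAB GTPase, was at 15.4, 15.8 and 13.3 CPM against a median of 1.56 CPM (1.02 to 2.50). REST, which represses neuronal genes outside the nervous system, was at 48.9, 46.4 and 46.8 CPM against a median of 41.2 CPM (33.2 to 44.1). Its classes did not overlap, but the difference of 1.17-fold was under the 1.5-fold limit.

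In the PI3K and AKT list, 5 of 36 members were lower (13.9%) and 2 higher (5.56%), and the median of 0.12 was on the other side. The lower members were led by both regulatory subunits. PIK3R3 was at 2.11, 1.88 and 1.74 CPM against a median of 5.94 CPM (4.79 to 6.67), beside PIK3R2 above. The catalytic subunit PIK3CD was at 6.82, 7.51 and 8.51 CPM against a median of 17.0 CPM (14.5 to 19.1), 2.18-fold lower.

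Secreted growth factors and cytokines had the largest share of members counted as lower, 11 of 28 (39.3%), beside 6 higher (21.4%). Every chemokine of the list that was counted was lower. CXCL5 was at 164, 129.9 and 144 CPM against a median of 445 CPM (348 to 546), 2.98-fold lower. CXCL2 was at 8.32, 4.52 and 4.41 CPM against a median of 19.0 CPM (13.4 to 22.9). By contrast PDGFB, a platelet-derived growth factor chain, was higher at 13.3, 19.8 and 15.1 CPM against a median of 4.70 CPM (2.83 to 7.10), 3.33-fold.

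CXCL2, CXCL3, CXCL5 and BIRC3 are textbook targets of NF-κB, so their promoters are shown with its binding site. These 4 genes were chosen after their values were seen. Matches were listed only for the genes named by size and for up to 4 counted members of each gene list. Of those, genes without a listed match, BCL2A1 among them, are not shown. CXCL1, CXCL8 and CCL2, which were also counted, were not among the listed genes, so nothing is said of their promoters. The 30 bases around each match are shown 5′ to 3′ on the strand of the gene, with the matched letters in capitals (RefSeq sequence, GRCh38.p14). CXCL2 and CXCL3, both on chromosome 4, share the whole match and nearly all of its flanks. In the 3 chemokine genes the match reads on both strands, shifted by 1 base, and the 2 in BIRC3 read on the other strand only.
CXCL3 (chr4:74038749-74038778, minus strand): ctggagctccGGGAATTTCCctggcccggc
CXCL2 (chr4:74099254-74099283, minus strand): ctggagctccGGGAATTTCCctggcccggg
CXCL5 (chr4:73998749-73998778, minus strand): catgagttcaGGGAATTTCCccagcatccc
BIRC3 (chr11:102317275-102317304, plus strand): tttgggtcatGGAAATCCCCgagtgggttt
BIRC3 (chr11:102317339-102317368, plus strand): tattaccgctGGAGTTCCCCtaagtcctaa

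The search window ran from 250 bases before to 50 after each start site, and both strands were read. The NF-κB site was found in 62 of the 734 lower genes with a promoter in the RefSeq table (8.45%), in 50 of 729 higher genes (6.86%) and in 688 of 10522 tested genes (6.54%). Across all 27305 promoters of the table the share was 5.72%. Among the other genes described here, its matches were also found for the higher genes CEND1, DOCK2 and ITGA11 and for the lower genes SDC4 and CAPG. The CArG box, the site of serum response factor in front of many actin genes, was found in 13 of 729 higher genes (1.78%), in 6 of 734 lower genes (0.817%) and in 111 of 10522 tested genes (1.05%). These shares describe letters and were not tested.

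Replication genes other than MCM7 differed little. In the list of helicase and licensing genes, 0 of 16 were counted in either direction (median 0.076). The other subunits of the helicase stayed close to the normal range, with MCM2 at 153 to 165 CPM against 114 to 137 CPM, MCM3 at 199.99 to 205 CPM against 169 to 196 CPM and MCM4 at 347 to 369.5 CPM against 367 to 409 CPM. MCM4, MCM5 and MCM6 overlapped between the classes. AP4M1, whose annotation overlaps MCM7 on the other strand, was at 13.2 to 14.8 CPM against 13.3 to 16.8 CPM.

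Of 39 genes of origin firing and the fork, 3 were lower and 1 higher (7.69% and 2.56%). RFC3, a clamp loader subunit, was at 46.2, 41.9 and 46.6 CPM against a median of 77.9 CPM (71.0 to 85.3), and POLE2, a subunit of polymerase ε, at 13.5, 11.9 and 14.6 CPM against a median of 22.7 CPM (19.7 to 25.6). Among G1 regulators CDK6, the cyclin D kinase, was 2.75-fold higher at 314, 312 and 283 CPM against a median of 113 CPM (96.9 to 119). The inhibitor CDKN1B (p27) was also higher, at 46.2, 47.0 and 45.6 CPM against a median of 27.3 CPM (25.5 to 28.6), and CDKN1A (p21) was lower, at 242, 255 and 266 CPM against a median of 471 CPM (406 to 531). WEE1, which restrains CDK1, was the only member of the 33 repair and replication stress genes that was counted, at 78.5, 73.7 and 69.5 CPM against a median of 24.6 CPM (21.7 to 30.8).

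Mitotic and p53 genes lay on the lower side. Of 40 genes of G2 and mitosis, 6 were lower (15.0%) and 0 higher (median -0.26). The kinesin KIF2C was at 30.0, 29.8 and 34.2 CPM against a median of 59.3 CPM (49.0 to 64.0), the kinase AURKA at 64.5, 59.5 and 63.1 CPM against a median of 110.2 CPM (94.9 to 116) and PLK1 at 51.9, 58.2 and 62.4 CPM against a median of 102 CPM (82.8 to 109). Of 29 p53 targets, 8 were lower (27.6%) and 0 higher (median -0.30). GDF15, a stress-induced TGFβ-family cytokine, was at 26.5, 33.9 and 33.7 CPM against a median of 97.0 CPM (56.1 to 113), and PHLDA3, an inhibitor of AKT, at 47.8, 54.1 and 56.8 CPM against a median of 120.2 CPM (90.4 to 128).

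Serine and folate enzymes gave 5 lower of 16 (31.2%) and 0 higher, although the median of the list was 0.018. MTHFD2, the mitochondrial folate dehydrogenase, was at 94.5, 94.5 and 90.4 CPM against a median of 262 CPM (248 to 334), 2.91-fold lower. PSAT1, of serine synthesis, was at 125, 132 and 129 CPM against a median of 300.1 CPM (268 to 377), and SLC25A32, the mitochondrial folate carrier, at 17.3, 14.6 and 17.99 CPM against a median of 43.4 CPM (39.4 to 53.8). Of 30 genes of the ATF4 stress response, 5 were lower (16.7%) and 0 higher, among them the regulator ATF5 at 15.2, 18.9 and 20.4 CPM against a median of 46.7 CPM (37.6 to 54.3). SLC7A5, the large neutral amino acid transporter, was at 605, 708 and 731 CPM against a median of 1491 CPM (1215 to 1621).

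Genes of large assemblies lay slightly lower. The 64 respiratory chain genes had a median of -0.23, with 62 of 64 below 0, but only 2 were counted as lower (3.12%), under the background of 6.88%. The 70 mitochondrial ribosome genes had a median of -0.25 and 7 lower (10.0%), and the 62 genes of rRNA processing had -0.36 and 7 lower (11.3%). Neither had a higher member. MRPL20 was at 27.5, 28.8 and 30.4 CPM against a median of 54.4 CPM (48.5 to 55.9), and BOP1, needed for large subunit rRNA processing, was at 35.3, 55.3 and 59.1 CPM against a median of 101 CPM (65.4 to 117). For BOP1 parental noDox 2 again gave the lowest value.

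Values for the remaining lists follow. NRF2 targets, which A549 expresses strongly, gave 1 lower of 25, ALDH3A1, at 1201, 1428 and 1533 CPM against a median of 2746 CPM (1930.1 to 3146). Interferon genes gave 4 lower (17.4%) and 1 higher (4.35%) of 23, with HERC5 at 4.66, 4.01 and 3.89 CPM against a median of 10.6 CPM (8.96 to 13.6). Glycolysis and hypoxia genes gave 3 higher and 1 lower of 29. HK2, a hexokinase, was at 0.401, 0.555 and 0.615 CPM against a median of 2.61 CPM (2.21 to 3.46), and the glucose transporter SLC2A3 at 59.6, 69.9 and 53.1 CPM against a median of 27.7 CPM (23.1 to 36.6). Cholesterol synthesis genes gave 2 higher and 1 lower of 26, with INSIG1, which holds back sterol synthesis, at 136, 129 and 112 CPM against a median of 60.9 CPM (54.2 to 82.6).

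Counted genes were spread over the genome and differed in transcript size. Per chromosome, 3.28% (chromosome 21) to 9.33% (chromosome 4) of the tested genes were higher and 4.26% (chromosome 18) to 8.49% (chromosome 19) were lower. The median length of the longest transcript was 4220 bases for higher genes, 3165 bases for lower genes and 3390 bases for all tested genes. Their median GC content was 49.1%, 52.7% and 49.1%. In expression they were alike, with a median of 13.4 CPM for higher and 14.1 CPM for lower genes, and below the 28.7 CPM of all genes.

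By label, the 12 libraries gave 0 calls with edgeR. Since the labels may not match the files, this count is no measure of the response of A549 to Dox or the shRNA. With edgeR's quasi-likelihood test at 1.5-fold, p under 0.01 and FDR under 0.05, Dox against noDox in shMCM7 cells called 0 of 13550 genes (0%), and 61 had an unadjusted p under 0.05. In parental cells 0 of 13494 genes (0%) were called, and 1137 had an unadjusted p under 0.05. Without the 3 low-MCM7 libraries the counts were again 0 and 0, with 90 and 1427 genes at an unadjusted p under 0.05. For the shMCM7 comparison this left 2 libraries against 2. In the parental comparison, leaving out noDox 3 instead gave 300 genes up-regulated and 0 down-regulated, and the DESeq2 Wald test on all 6 libraries gave 9 and 0. The smallest adjusted p among the 24 genes named by size was 1.000 in edgeR's shMCM7 comparison.

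The A375 libraries, which the MCM7 rule did not use, allow a test of the same genes. Only the shMCM7 libraries of A375 entered it, so effects of Dox alone and of the shRNA cannot be told apart. The A375 libraries were also deeper, with 146656792 to 283721575 counts against 17911338 to 23452823 in A549. Shares of genes called are thus not directly comparable between the lines. MCM7 was at 75.8 to 77.6 CPM in A375 shMCM7 Dox, and at 131.5, 353 and 359 CPM in shMCM7 noDox, so that noDox replicate 1 stood apart there. Dox against noDox in A375 shMCM7 cells up-regulated 897 of 16087 genes (5.58%) and down-regulated 1037 (6.45%). Of the 988 genes higher in A549, 954 were tested in A375, of which 261 (27.4%) were up-regulated and 33 (3.46%) down-regulated. Of the 948 lower genes, 899 were tested, of which 308 (34.3%) were down-regulated and 12 (1.33%) up-regulated. Median log2 fold changes in A375 were 0.37 for the higher and -0.45 for the lower genes, against 0.0045 for all genes. Read from the other side, 29.1% of the genes up-regulated in A375 were counted as higher in A549, and 29.7% of those down-regulated were counted as lower. Without A375 noDox replicate 1 the counts were 277 and 331.

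Among the 12 genes named as higher, 6 were up-regulated in A375 and 1 was down-regulated, and among the 12 named as lower 9 were down-regulated and 0 up-regulated. Among these 24, the largest increase in A375 was that of CEND1 (edgeR, log2 fold change 2.43 ± 0.28 (SE), FDR = 2.15e-04). COX15 was down-regulated in A375 (edgeR, log2 fold change -1.43 ± 0.17 (SE), FDR = 2.18e-04), as did PIK3R2 (edgeR, log2 fold change -1.56 ± 0.18 (SE), FDR = 1.85e-04) and CDC34 (edgeR, log2 fold change -1.32 ± 0.11 (SE), FDR = 5.83e-05). EDN2 alone among the 24 was called in the opposite direction, higher in A549 and down-regulated in A375 (edgeR, log2 fold change -1.01 ± 0.22 (SE), FDR = 0.00498). The difference between the lines was not tested, since the A549 contrast has no test.

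The leading matrix genes were not all called in A375. Of the 42 glycoproteins and proteoglycans, 7 were up-regulated and 8 down-regulated there. For this and the list counts that follow, the background is 5.58% of all A375 genes up-regulated and 6.45% down-regulated. SPARC did not reach the 1.5-fold limit there (edgeR, log2 fold change 0.43 ± 0.054 (SE), FDR = 2.81e-04), and neither did COL4A1 (0.23) or COL1A1 (0.21). Among other matrix genes described above, THBS1 (0.99), COL12A1 (0.71) and COL5A1 (0.63) were up-regulated. SDC4 (-0.64) and NID2 (-0.75), lower in A549, were down-regulated. Of 22 collagens tested, 4 were up-regulated and 1 was down-regulated in A375. Among YAP and TEAD targets 5 of 20 were up-regulated and 0 down-regulated, with CYR61 at a log2 fold change of 1.06 and TGFB2 at 1.16. TIMP2 was up-regulated (edgeR, log2 fold change 0.80 ± 0.078 (SE), FDR = 9.64e-05).

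On the lower side, 13 of 40 genes of G2 and mitosis were down-regulated in A375 and 0 up-regulated, against 6.45% and 5.58% of all genes. Of 16 serine and folate enzymes, 4 were down-regulated, led by MTHFD2 (edgeR, log2 fold change -1.96 ± 0.17 (SE), FDR = 6.45e-05). Of the PI3K genes, PIK3R3 was down-regulated at a log2 fold change of -1.60, while PIK3CD at -0.26 did not reach the fold limit. In contrast, p53 targets gave 2 down-regulated of 28 in A375, near the 6.45% of all genes, with a median of 0.029. The rRNA processing and mitochondrial ribosome genes gave 0 called of 62 and 0 of 70. CXCL5 was not tested in A375 because of low counts, and CXCL2 was at a log2 fold change of -0.39 (edgeR, FDR = 0.221).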

How the data were processed

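RNA from double thymidine-blocked A549 and A375 cells was sequenced in 24 libraries. Per the submitters' processing notes and the labels, reads were processed with Trimmomatic, STAR 2.7.1 and featureCounts on GRCh38.p10. The authors deposited raw read counts per gene for each library, without normalization. Strand use in counting is not given in the sources used here. No 2 replicates agreed within counting noise (chi-square per degree of freedom of at least 1.95).

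Names and positions came from GENCODE 29. A549 libraries were grouped by MCM7 CPM (limits 150 and 250), computed from the deposited counts. The members, gene lists and the rule for named genes were chosen with earlier results of these data known. That rule took the 12 largest non-overlapping differences per direction among protein-coding genes with a mean of at least 5 CPM, up to 4 counted members of each list, and genes fixed in any case, among them REST, PIK3R2, PIK3R3, PIK3CD, TIMP2 and MMP10. Some items covered by the rule are not reported here. CPM were scaled with TMM after filterByExpr, and log2 values used a prior count of 2. The contrast of low against normal MCM7 was not tested.

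Tests by label used edgeR 4.0.16 (glmQLFit, glmQLFTest) in R 4.3.3, checked on simulated data, and called genes at the thresholds given in the text. Alternatives were DESeq2 1.42.0, other scalings, filters, folds and prior counts, a replicate block and leaving out libraries. With 17911338 to 23452823 counts per A549 library, 3 counts equal 0.128 to 0.167 CPM. No library was left out. Promoters were read from the RefSeq table of GRCh38.p14.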

Additional observations from a re-analysis of the deposited data

How the results depend on the processing

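The counts of higher and lower A549 genes stayed within 1.5 times of 988 and 948 under DESeq2 size factors, library totals, no filter, a prior count of 10, a filter of 10 counts in every library and either set of normal libraries. A limit of 2-fold gave 336 higher and 358 lower genes, since it counts fewer genes by construction. Leaving out each library gave 1012 to 1116 higher and 922 to 1077 lower genes. No scaling moved the median of all genes by over 0.1 on the log2 scale.

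By label, Dox against noDox gave 0 calls in shMCM7 A549 cells under every alternative that was run. In parental cells the DESeq2 Wald test called 9 up-regulated genes, and leaving out each library gave 0 to 300 up-regulated genes, with 300 without noDox replicate 3. The cause was not tested. The replicate block gave 0 calls in both A549 comparisons, 266 higher genes up-regulated and 316 lower genes down-regulated in A375. Deviations of same-numbered libraries correlated at 0.21, -0.66 and -0.69 in A549 shMCM7, at 0.021, -0.020 and -0.074 in A549 parental and at 0.26, 0.088 and 0.23 in A375, so the numbers were not taken to pair the libraries. Leaving out each A375 library gave 246 to 277 and 292 to 331 genes. With 3 low libraries, values under 0.167 CPM rest on at most 3 counts.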
